A study of Mus musculus with 16 samples.

Results

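Complement component C3 is the plasma protein on which the activation routes of the complement system converge. Its split products opsonize cells and particles, and macrophages read them through the receptors C3aR and CR3 (CD11b with CD18). Macrophages inside tumours clear dying cells and debris, break them down in acidified lysosomes, present peptides from them and secrete chemokines, growth factors and matrix enzymes. The comparison asked which of these functions differ in RNA when the host has no functional C3 gene.

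The 8 libraries described here were the macrophage libraries out of 16 libraries in all, chosen by their titles: 4 from C3 wild-type mice (mice 1 to 4) and 4 from C3 knockout mice (mice 6 to 9), 1 library per mouse. All mice were C57BL/6J and carried a tumour grown from MN/MCA1 cells, a transplantable mouse fibrosarcoma line, injected under the skin of the flank and taken at day 21. Macrophages were sorted as CD45+ CD11b+ F4/80+ cells without Ly6G, CD11c or Ly6C. The knockout is of the host mouse, and the C3 genotype of the injected cells is not given in the labels, nor are the age and sex of the mice. The same mice also gave monocyte libraries, which were not analysed here.

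Reads recovered from the deposited log2 values numbered 20222812 to 28109857 per library, with 17850 to 19239 genes detected. Values below are normalized reads (recovered reads divided by the library's size factor), listed for wild-type mice 1, 2, 3 and 4 and then for knockout mice 6, 7, 8 and 9. Means carry the SD over 4 libraries. Differences are knockout minus wild type on the deposited log2 scale, with the SE and the Benjamini-Hochberg adjusted p from limma; this scale is compressed, and log2 ratios of reads were 1.41 times as large among called genes. A gene was called when its adjusted p was under 0.05. Most genes named below were chosen because they were called, which favours groups without overlap. Lack of overlap in them is therefore description and not further support. C3 itself had 3262, 4668, 4830.1 and 3272 normalized reads in the wild-type libraries and 1076, 1368, 1390.3 and 1102 in the knockout libraries, so reads assigned to it in the knockout were 30.8% of the wild-type mean and the groups did not overlap (exact permutation test, two-sided p = 0.0286, the smallest that 4 against 4 allows).

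Markers of the gated population were checked before the results. Adgre1 (F4/80; 27677, 27588, 26552 and 27230.4 against 22022, 28547, 28943 and 25886 normalized reads) and Csf1r, the receptor of macrophage colony-stimulating factor (86536, 95936, 96983 and 92132 against 86915, 91206, 93168 and 88862), were high in every library and did not pass the test (adjusted p = 0.761 and 0.75). Of 10 macrophage markers 4 were called, all lower: Mrc1, Mertk, Itgam and Apoe. The deposited Itgax reads (CD11c; 6122, 6726, 6564 and 5394 against 5290.2, 5230.0, 4115 and 5282) were substantial although the gate left out CD11c-positive cells, and Itgax did not pass (adjusted p = 0.0795), except without mouse 4 (adjusted p = 0.0462). Of the markers of other cells, the 7 Ly6C monocyte markers, the 4 neutrophil, 7 dendritic cell and 2 platelet markers tested gave 0 calls by limma. At an unadjusted p under 0.05 these were 2, 2, 2 and 0, and the authors' deposited table called 2 of the monocyte markers and none of the others. No mast cell marker reached the expression filter.

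Some libraries stood apart. Summed reads of 4 red blood cell genes (Hbb-bt, Hba-a1, Hba-a2 and Alas2) were 693, 1272, 428 and 614 in the wild type and 215, 242, 145 and 161 in the knockout, and all 4 were called lower. Mouse 2 had the most. Summed reads of 7 fibroblast or sarcoma genes, among them Col3a1 (1404, 1181, 493 and 554 against 632, 574, 106 and 253), were 2618, 2022, 955 and 1141 in the wild type and 1068, 1012, 213 and 511 in the knockout, with 0 calls by limma or in the authors' deposited table (2 at an unadjusted p under 0.05) and a median log2 difference of -0.80; the groups overlapped and mouse 8 was lowest. Both sets were low beside the macrophage markers, whose sum was at least 786140 in every library. The part of these cells in the results was not tested. In bulk RNA of this kind, fewer cells of a type and less RNA per cell cannot be told apart.

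Of 12568 genes tested, 717 were called, 5.7% of them. In the knockout 323 (2.57%) were higher and 394 (3.13%) lower, and 214 differed at least 2-fold in mean reads (97 higher, 117 lower). The median log2 difference over all genes tested was 0.0023, with quartiles at -0.082 and 0.083. Most called genes therefore differed by less than 2-fold. Leaving out 1 mouse at a time gave 458 to 656 calls, with the fewest, 233 higher and 225 lower, without mouse 2. The calls lower in the knockout also fell below 394 by more than 1.5 times without mouse 1 (249) and without mouse 9 (246). The results were grouped by 55 gene lists covering 1835 genes, of which 1679 were tested, and the lists held 202 of the 717 calls.

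**Figure D1:**
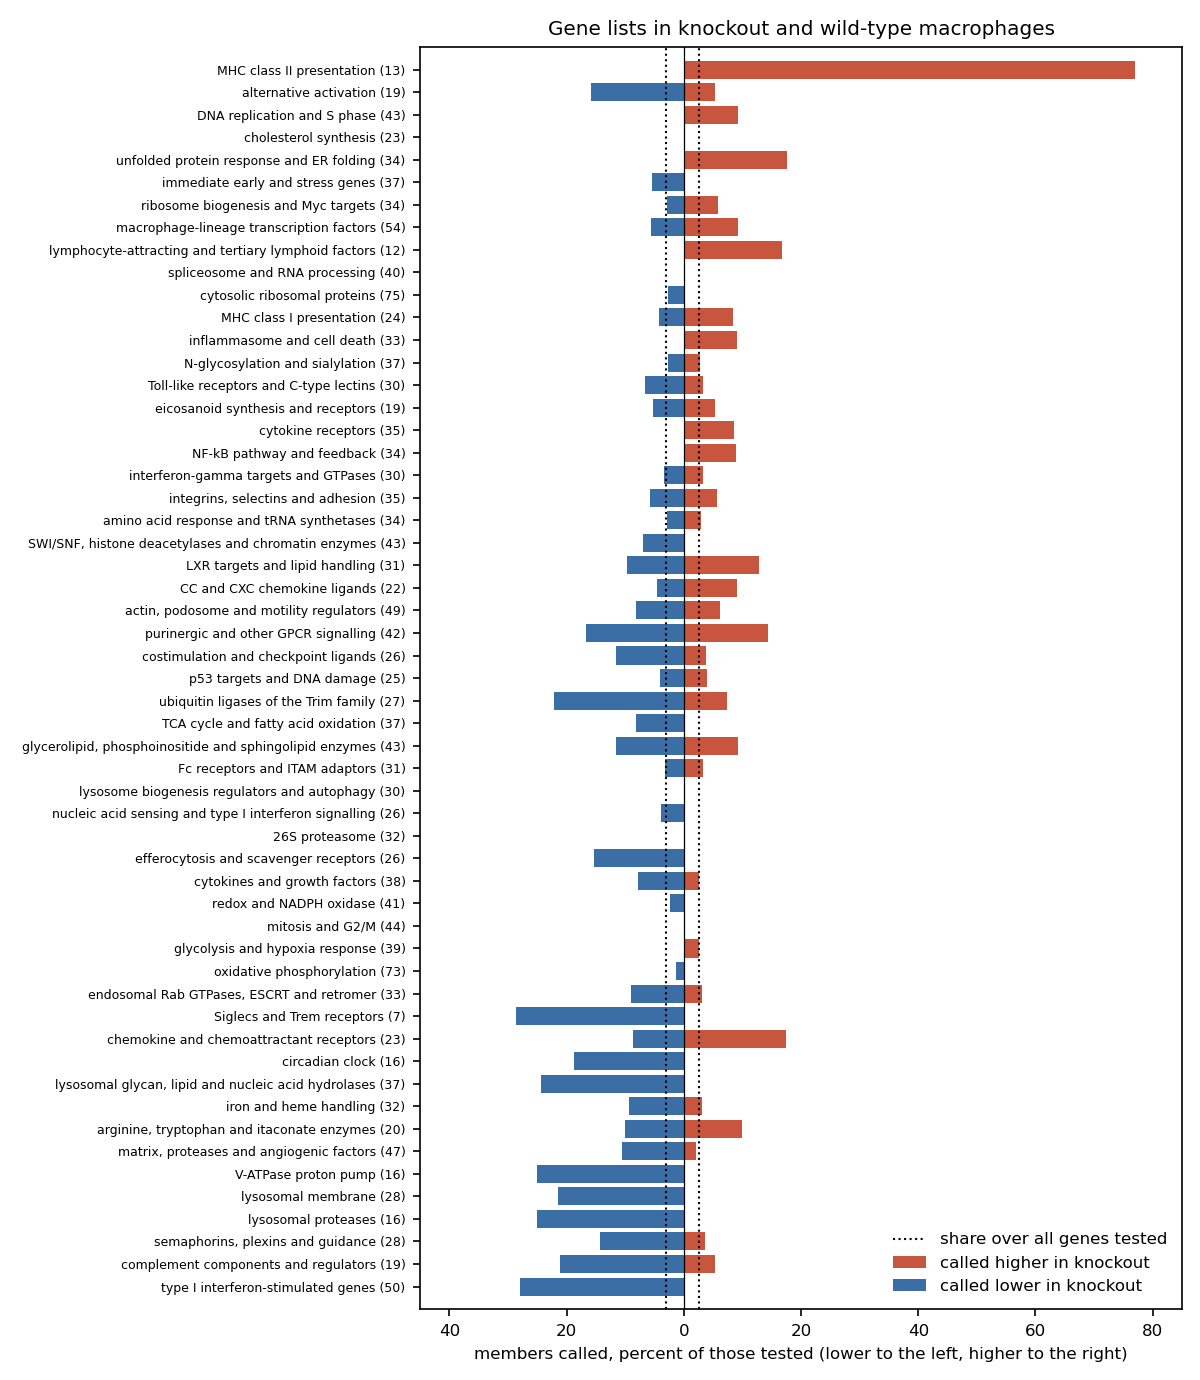
Share of the tested members of each of 55 gene lists that were called higher (red, to the right) or lower (blue, to the left) in knockout macrophages, in percent on a linear axis, ordered by the median log2 difference of the list, with the number of members tested in parentheses. Dotted lines mark the shares over all genes tested, 2.57% higher and 3.13% lower; the MHC class II list reaches 76.9% higher (10 of 13), and the type I interferon list 28% lower (14 of 50).

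Some genes of the lysosome's proton pump, hydrolases and membrane were called lower in knockout macrophages. The lysosome is acidified by the V-ATPase, and the acid pH activates the cathepsins and glycosidases that digest engulfed protein, sugar chains, lipid and nucleic acid. Of 97 tested genes on 4 lysosomal lists 23 were called, all lower, against 3.13% lower over all genes, and 81 of the 97 lay below 0 (median -0.12). By role, 4 of 16 V-ATPase subunits, 4 of 16 proteases, 9 of 37 other hydrolases and 6 of 28 membrane proteins were lower. The pump count was 1 without mouse 1, 2, 3, 4 or 6 or with no filter on low values, and 2 without mouse 8 or without limma's trend and robust options. The hydrolase count was 4 without mouse 2 or 3 or those options, and 5 without mouse 1, 4, 6, 8 or 9. The membrane count was 3 without mouse 2, 3 or 9 or those options, and the protease count stayed between 3 and 5. Part of the promoters of Ctsd and Atp6v1a is printed because many lysosomal genes carry the CLEAR element, the site bound by the lysosomal regulator TFEB.

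The palindromic core of that element, TCACGTGA, which reads the same on both strands, was searched in the 300 bases around each annotated start (250 before, 50 after) in RefSeq on GRCm38.p6. It was found in 11 of the 78 lysosomal-list promoters on file (14.1%), in 2.26% of 9350 promoters of tested genes and in 1.12% of all 27025 promoters. Among the 19 called members with a promoter on file 2 held it (10.5%), Ctsd and Atp6v1a. The match lay 99 bases before the start in Ctsd (chr7:142387909-142387936, minus strand) and 132 bases before it in Atp6v1a (chr16:44139374-44139401, minus strand). Both are printed 5′ to 3′ on the strand of the gene, with the core in capitals.
Ctsd: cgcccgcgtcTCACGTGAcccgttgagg
Atp6v1a: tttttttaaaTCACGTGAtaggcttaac
A match of letters describes the sequence and does not show binding.

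Among pump subunits, Atp6v1a, the catalytic subunit that hydrolyses ATP, had 7585, 7918, 7947 and 8163 normalized reads in the wild-type libraries and 5099, 6488, 5478 and 5676 in the knockout libraries. Every knockout library was below every wild-type library, and the mean was 71.9% of the wild-type mean (log2 difference -0.34 ± 0.05, adjusted p = 0.00201). Atp6v0d2, a membrane-sector subunit found in osteoclasts and some macrophages, had 773, 604, 872 and 656 against 302, 279, 97.4 and 355 and fell to 35.6% (log2 difference -1.19 ± 0.27, adjusted p = 0.0475), with mouse 8 lowest. The further called subunits, Atp6v1g1 and Atp6v1b2, stood at 85% and 85.1% of the wild-type mean (adjusted p = 0.0434 and 0.0489). Atp6v0d2 was not called without mouse 1, 2, 3, 4, 6 or 7, with no filter on low values or in the authors' deposited table (adjusted p of 0.0639 to 0.347). Atp6v1g1 was not called without mouse 1, 2, 3, 4, 6 or 8, with no trend or robust estimation or no filter on low values or in the authors' deposited table (adjusted p of 0.0629 to 0.118). Atp6v1b2 was not called without mouse 1, 2, 3, 4, 6, 8 or 9 or with no trend or robust estimation, no filter on low values or quality weights (adjusted p of 0.0541 to 0.122).

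Among proteases, the aspartyl protease gene Ctsd had 23228, 26314, 24786 and 25996 normalized reads in the wild-type libraries and 14405, 18401, 16049 and 13697 in the knockout libraries, a fall to 62.4% without overlap (log2 difference -0.50 ± 0.06, adjusted p = 0.00068). Ctsb, a cysteine cathepsin and one of the most abundant transcripts of these cells, had 131295, 138518, 134988 and 134776 against 91422, 115431, 105297 and 95923. It fell to 75.6% (log2 difference -0.30 ± 0.05, adjusted p = 0.0083). The collagen-degrading cathepsin gene Ctsk was less abundant, with 805, 1123, 1124 and 903 against 379, 476, 201 and 398, and fell further, to 36.8% (log2 difference -1.07 ± 0.17, adjusted p = 0.00853). Tpp1, a tripeptidyl peptidase, was at 84.7% (log2 difference -0.18 ± 0.04, adjusted p = 0.0162). Ctsk was not called in the authors' deposited table (adjusted p = 0.344). Tpp1 was not called without mouse 4 or with no trend or robust estimation (adjusted p of 0.052 to 0.0599).

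Among the other hydrolases, Naglu, which removes sugars from heparan sulfate, had 3897, 4239, 4211 and 4173 against 2991, 3342, 3359 and 2871 and fell to 76% (log2 difference -0.29 ± 0.05, adjusted p = 0.00337). Acp5, the tartrate-resistant acid phosphatase, had 7839.9, 8159, 9248 and 6687 against 4341, 5688, 3704 and 4284, a fall to 56.4% (log2 difference -0.62 ± 0.10, adjusted p = 0.00562). The nucleases moved with them: Pld3, an exonuclease of endolysosomes, was at 78.8% (log2 difference -0.25 ± 0.05, adjusted p = 0.00829) and Dnase2a, which digests engulfed DNA, at 76.1% (log2 difference -0.29 ± 0.06, adjusted p = 0.0126). In none of these 4 genes did the groups overlap. In the membrane, the tetraspanin gene Cd63 had 17507, 17257, 18518 and 17028 against 11539, 13032, 10962 and 12337 (log2 difference -0.43 ± 0.05, adjusted p = 0.000215). Scarb2, which carries glucocerebrosidase to the lysosome, had 3926, 4022, 4097 and 3603 against 2679, 2845, 2866 and 2673 (log2 difference -0.36 ± 0.04, adjusted p = 0.00034), and Slc17a5, the sialic acid exporter, was at 71.3% (log2 difference -0.35 ± 0.06, adjusted p = 0.00346). Tpcn2, a lysosomal cation channel, was at 82.7% (log2 difference -0.20 ± 0.04, adjusted p = 0.0219). Cd63 was not called in the authors' deposited table (adjusted p = 0.0532). Tpcn2 was not called without mouse 2, 3, 4 or 9 or with no trend or robust estimation (adjusted p of 0.0507 to 0.0675).

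**Figure D2:**
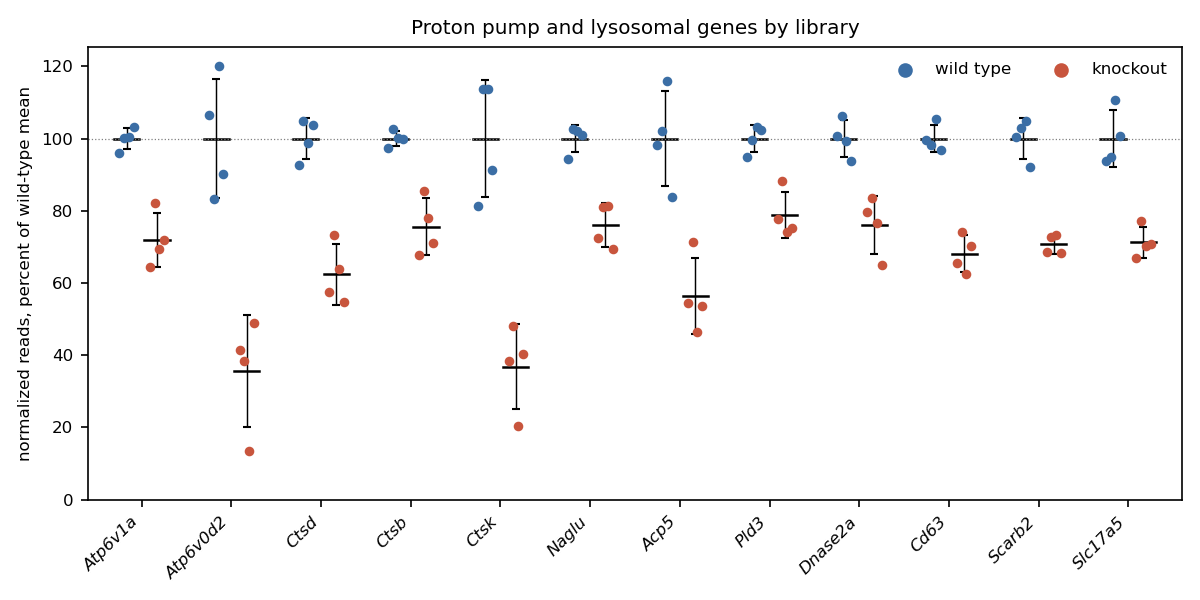
Normalized reads of 12 proton pump and lysosomal genes as percent of the wild-type mean on a linear axis from 0; each point is 1 library (4 wild type in blue, 4 knockout in red), the bar is the mean and the whisker the SD. The knockout means run from 35.6% for Atp6v0d2 to 78.8% for Pld3, and in each gene the knockout points lie below the wild-type points.

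Of 30 genes that regulate lysosome formation and autophagy, 0 were called by limma, by voom or in the authors' deposited table (5 at an unadjusted p under 0.05; median -0.03). In the endosomal list of 33 genes 3 were lower and 1 higher (12.1% called, against 5.7% over all genes). Rab32, a GTPase of lysosome-related organelles, fell to 72% (log2 difference -0.33 ± 0.07, adjusted p = 0.0162), the Rab7 effector gene Rilp had 77.9, 88.7, 59.1 and 60 against 40.5, 43.4, 43.4 and 31 (log2 difference -0.54 ± 0.13, adjusted p = 0.0337), and the sorting nexin gene Snx6 was at 84.1% (log2 difference -0.18 ± 0.04, adjusted p = 0.035). Rab7b, a late endosomal GTPase, rose 1.33-fold (log2 difference 0.29 ± 0.07, adjusted p = 0.0233), with mouse 6 closest to the wild type. Rab32 was not called without mouse 2 or with no trend or robust estimation (adjusted p of 0.0507 to 0.0565). Rab7b was not called without mouse 2, 3, 4, 7, 8 or 9 or with no trend or robust estimation (adjusted p of 0.0545 to 0.0764). Rilp was not called without mouse 1, 2, 6, 7 or 9 (adjusted p of 0.0569 to 0.103). Snx6 was not called without mouse 1, 2, 3, 4, 8 or 9 or with no trend or robust estimation (adjusted p of 0.0518 to 0.0981). The endosomal lower count was 0 without mouse 2 and 1 without mouse 1 or 9 or limma's trend and robust options. Counts over the 4 lysosomal lists ran from 12 to 24 across the alternatives, with at most 1 gene higher in any of them, and were 12 without mouse 2, without mouse 3 or without limma's trend and robust options. They were 14 without mouse 1 or mouse 4, and 15 without mouse 6 or mouse 9.

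Part of the type I interferon-stimulated genes were also called lower, while the list's median in wild-type mouse 4 lay among those of the knockout libraries. Interferon-stimulated genes encode antiviral effectors and are switched on through the transcription factor complex ISGF3, which binds the interferon-stimulated response element (ISRE). Of 50 tested genes on this list 14 were lower and 0 higher (median -0.20), with 45 below 0. Of 26 nucleic acid sensing and signalling genes (1 lower, 3.85%, near the 3.13% over all genes) only Tlr7, the endosomal receptor of single-stranded RNA, was called, at 74.7% of the wild-type mean (log2 difference -0.29 ± 0.07, adjusted p = 0.0236). Tlr7 was not called without mouse 2, 3, 6, 8 or 9 or with no trend or robust estimation (adjusted p of 0.0559 to 0.0778). The ISRE core GAAANNGAA, searched on both strands and counted once per promoter, was in 22 of 36 list promoters on file (61.1%), 7 of 11 called ones (63.6%), 9.1% of 9350 promoters of tested genes and 9.76% of all 27025. Matches may overlap each other. The 7 called genes are printed to show how the element sits before the start, 5′ to 3′ on the gene's strand with matches in capitals; a capital run that begins TTC is a match on the opposite strand.
Bst2 (chr8:71537584-71537612, minus): ggcattccagGAAAATGAAACTGAAaggc
Ifit3b (chr19:34607760-34607788, plus): agtggtaagtTTCACTTTCctcttctggt
Oas1g (chr5:120887613-120887641, minus): cccttctcggGAAATGGAAACTGAAaatc
Oas1a (chr5:120907527-120907555, minus): cccttctcggGAAATGGAAACTGAAaatc
Lgals9 (chr11:78984960-78984988, minus): gacatcagctTTCTTTTTCtctagacact
Ifi44 (chr3:151749895-151749923, minus): aaagtttctcTTCATTTTCtacaggcttg
Ifit1 (chr19:34640770-34640798, plus): aactgcaggcTTCAGTTTCACTTTCcagt
The printed windows of Oas1g and Oas1a are identical, and reads of such near copies can be split between them. The 250 bases before the start of Ifit3b held 3 matches (chr19:34607707-34607956, plus strand).
Ifit3b promoter: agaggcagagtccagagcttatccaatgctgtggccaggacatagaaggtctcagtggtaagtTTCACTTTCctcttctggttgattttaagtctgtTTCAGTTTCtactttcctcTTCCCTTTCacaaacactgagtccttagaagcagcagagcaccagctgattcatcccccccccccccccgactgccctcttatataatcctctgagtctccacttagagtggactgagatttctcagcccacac

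Oas2, an oligoadenylate synthetase that senses double-stranded RNA, had 1794, 1633, 1759.9 and 1436 normalized reads in the wild-type libraries and 1252, 1219.8, 1224 and 1157 in the knockout libraries, a fall to 73.3% without overlap (log2 difference -0.30 ± 0.05, adjusted p = 0.00514). Bst2 (tetherin), which holds budding virus at the membrane, had 5609, 5879.8, 5474 and 5049.9 against 3915, 4235, 4640.0 and 4217 (log2 difference -0.27 ± 0.05, adjusted p = 0.00711). Ifi27l2a had 5516, 5471, 5618 and 4629.8 against 3698, 4167, 4138 and 3864 (log2 difference -0.28 ± 0.05, adjusted p = 0.00625) and Ifit3b, of the family that binds viral RNA, 789.6, 742, 753 and 505 against 393, 454, 451 and 339 (log2 difference -0.51 ± 0.10, adjusted p = 0.0133). Mouse 4 was the lowest wild-type library in all 4 genes, but still above the knockout. The further called genes with ISRE matches lay closer to the threshold: Oas1g, Oas1a, Lgals9, Ifi44 and Ifit1 stood at 76.7%, 80.8%, 79.7%, 68.3% and 70.9% of the wild-type mean, with adjusted p of 0.0303, 0.0392, 0.037, 0.0462 and 0.0479, and Oas1a and Ifit1 overlapped between the groups. Oas1g was not called without mouse 1, 2, 3, 6 or 9 or with no trend or robust estimation or quality weights (adjusted p of 0.0649 to 0.0943). Oas1a was not called without mouse 1, 2, 3, 6, 8 or 9 or with no trend or robust estimation or quality weights (adjusted p of 0.0633 to 0.118). Lgals9 was not called without mouse 1, 2, 3, 6, 7 or 9 or with no trend or robust estimation or quality weights (adjusted p of 0.0514 to 0.105). Ifi44 was not called without mouse 1, 2, 6, 7 or 9 or with no trend or robust estimation (adjusted p of 0.0949 to 0.129). Ifit1 was not called without mouse 1, 2, 3, 6, 8 or 9 or with no trend or robust estimation, quality weights or voom (adjusted p of 0.0558 to 0.129). The count of 14 was 4 without mouse 1, mouse 2, mouse 6 or mouse 9, or without limma's trend and robust options, 5 without mouse 3, 6 with array quality weights, and 24 without mouse 4.

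Of 30 tested genes of the interferon-gamma response 1 was higher and 1 lower, a share near that over all genes (6.67% against 5.7%). Cxcl11, a chemokine gene, had 145, 184, 194 and 109.9 against 837, 920.0, 1207 and 792 (log2 difference 1.67 ± 0.12, adjusted p = 1.17e-05). Gvin1, a very large interferon-inducible GTPase with close copies, had 38, 38.2, 31.4 and 34.7 against 0, 0, 0 and 0, at least 12.9-fold lower with a floor of 3 reads per knockout library. Gvin1 passed the filter on low values through the wild-type libraries alone, and it was not tested without mouse 1, 2, 3 or 4 or with a linear minimum of 50. Of 13 MHC class II genes 10 were higher (median 0.96). Beyond the chains that present peptide, these included both genes of the DO pair that restrains peptide loading, H2-Oa (58, 28.1, 58.2 and 39.7 against 165, 123, 157 and 113) and H2-Ob (328, 258, 240.1 and 237 against 711, 619, 848 and 686), which rose 3.03- and 2.69-fold (log2 difference 1.10 ± 0.16, adjusted p = 0.00153, and log2 difference 1.06 ± 0.09, adjusted p = 2.98e-05). Of 24 class I genes 2 were higher and 1 lower (12.5% called, against 5.7% over all genes). Among 32 proteasome genes 0 were called by limma, by voom or in the authors' deposited table (0 at an unadjusted p under 0.05). Tap2, the peptide transporter, stood at 123%, Calr, a chaperone of class I loading, at 125%, and H2-T24 at 71% of the wild-type mean (adjusted p = 0.0466, 0.0253 and 0.0415). Tap2 was not called without mouse 2, 3, 4, 7, 8 or 9, with no trend or robust estimation, no filter on low values or voom or in the authors' deposited table (adjusted p of 0.051 to 0.12). Calr was not called without mouse 1, 3, 4, 7, 8 or 9, with no trend or robust estimation or in the authors' deposited table (adjusted p of 0.0614 to 0.162). H2-T24 was not called without mouse 1, 2, 3, 6, 7 or 9 or with no trend or robust estimation or quality weights (adjusted p of 0.0517 to 0.109). Of the class II genes, H2-Eb1, H2-Aa and H2-DMb1 lie on chromosome 17 at 22.9 to 23.1 Mb from C3. Cd74 lies on chromosome 18 and Ciita on chromosome 16.

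**Figure D3:**
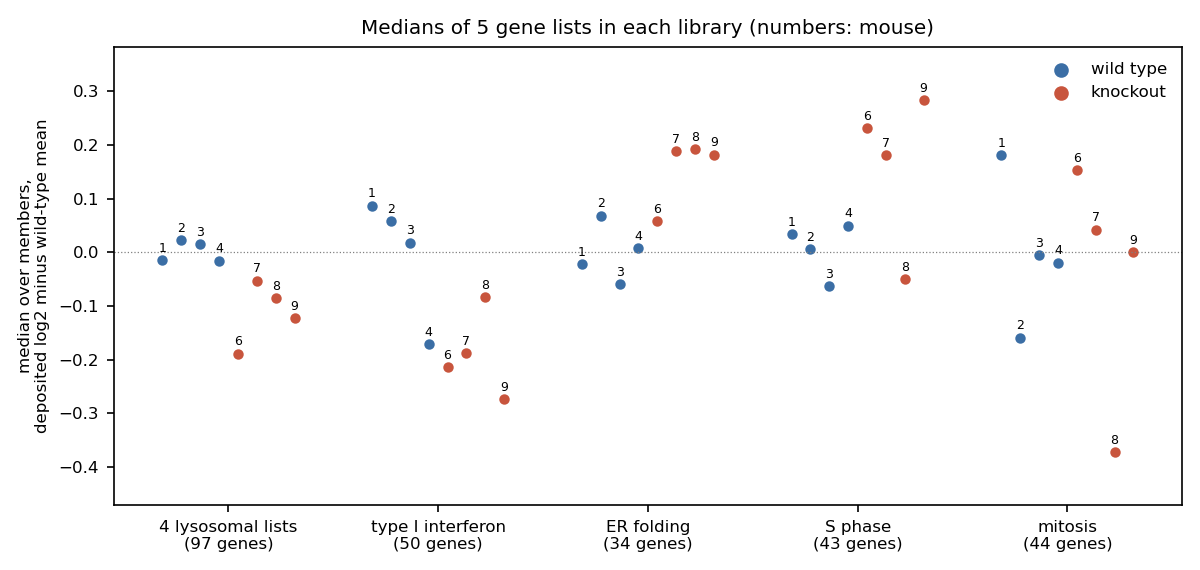
Median over the members of 5 gene lists in each library, as deposited log2 value minus the wild-type mean of the gene (numbers mark the mouse; wild type blue, knockout red). The lysosomal medians of the knockout (-0.189 to -0.053) lie below those of the wild type (-0.015 to 0.023), wild-type mouse 4 falls among the knockout in the interferon list, and knockout mouse 8 is the lowest library in mitosis.

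The clearance of dying cells is the route by which much material reaches the lysosome, and part of its bridging and receptor genes were lower. Of 26 tested genes 4 were lower and 0 higher (15.4% called, against 5.7% over all genes). Gas6, the bridge between phosphatidylserine on dying cells and the receptors Mertk and Axl, had 1633, 2049, 1919.7 and 2129.8 normalized reads in the wild-type libraries and 691, 878, 609 and 687 in the knockout libraries. It fell to 37% without overlap (log2 difference -1.14 ± 0.09, adjusted p = 2.27e-05). Its receptor Mertk had 2333, 2659.9, 2891 and 2329 against 1468, 1752, 2052 and 1199 (log2 difference -0.51 ± 0.11, adjusted p = 0.0337), whereas Axl, the more abundant receptor in reads, had 47941, 49559, 47552 and 47692 against 48402, 48267, 46946 and 49476 and did not pass (adjusted p = 0.987). Mfge8, a bridge to integrins, was at 60.4% (log2 difference -0.53 ± 0.11, adjusted p = 0.0169). Outside these 26 genes, the folate receptor gene Folr2, a marker of resident-like macrophages, had 142, 147, 182 and 182 against 70.8, 87.7, 59.3 and 100.2 (log2 difference -0.77 ± 0.13, adjusted p = 0.0056). Cd47, also outside them, gives phagocytes an inhibitory signal. It rose 1.32-fold, from 8213 ± 270.3 to 10853 ± 768 normalized reads (log2 difference 0.28 ± 0.04, adjusted p = 0.00291). Mertk was not called without mouse 1, 2, 3, 4, 6 or 7 or with no trend or robust estimation (adjusted p of 0.0529 to 0.0948). Mfge8 was not called without mouse 1, 3 or 9 (adjusted p of 0.0513 to 0.0579). Folr2 was not called in the authors' deposited table (adjusted p = 0.128). The count of 4 lower was 2 without mouse 3.

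Lectins and inhibitory receptors also moved in both directions. Siglec1 (CD169), which binds sialylated particles, had 2934, 3623, 3979 and 3054 against 1749, 2081, 2079.7 and 1609 (log2 difference -0.62 ± 0.08, adjusted p = 0.00148) and Cd22, another Siglec, 114, 134, 106 and 169.9 against 36.8, 56.5, 47.6 and 37.2 (log2 difference -0.99 ± 0.13, adjusted p = 0.000797); these were 2 of the 7 Siglec and Trem genes tested. The mannose receptor gene Mrc1 had 5718, 6004, 5970.5 and 6558 against 4084, 4908, 4901 and 4547 (log2 difference -0.30 ± 0.05, adjusted p = 0.00567), and Fcrls, an Fc receptor-like scavenger gene, 11419, 14629, 13086 and 14994 against 4273, 8328, 5837 and 7812 (log2 difference -0.86 ± 0.17, adjusted p = 0.0242). The inhibitory receptor gene Lilrb4a rose, with 8835, 8619, 6663 and 7927 against 11184, 9955, 12184 and 10769.6 (log2 difference 0.32 ± 0.06, adjusted p = 0.0133), and the C-type lectin gene Clec4b1 had 86.5, 64, 73.9 and 87.1 against 104, 128, 143 and 152 (log2 difference 0.53 ± 0.12, adjusted p = 0.0225). In none of these 6 genes did the groups overlap. Over the Fc receptor list of 31 and the Toll-like receptor and lectin list of 30, 2 genes were higher and 3 lower. These lists had 6.45% and 10% called, against 5.7% over all genes. Mrc1 was not called in the authors' deposited table (adjusted p = 0.756). Fcrls was not called without mouse 2, 3, 4 or 8 (adjusted p of 0.0704 to 0.0767). Lilrb4a was not called with no trend or robust estimation or in the authors' deposited table (adjusted p of 0.052 to 0.138). Clec4b1 was not called without mouse 2, 3, 7, 8 or 9 or in the authors' deposited table (adjusted p of 0.0526 to 0.174).

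In the complement list 4 of 19 tested genes were lower, C3 among them, and 1 was higher (median -0.15). The share called was 26.3%, against 5.7% over all genes. Fcna, a ficolin that starts the lectin pathway, had 367, 328, 366 and 393 against 227, 226, 122 and 181, a fall to 52% (log2 difference -0.74 ± 0.13, adjusted p = 0.00829). C5ar2, the second receptor of C5a, had 556, 704, 566 and 646 against 397, 414, 299.7 and 421 (log2 difference -0.49 ± 0.08, adjusted p = 0.00562), while C5ar1 (18236, 20284, 17403 and 20019 against 14277, 17744, 16357 and 17313) and the C3a receptor C3ar1 (19689, 19112, 19893 and 19753 against 15588, 18897, 18396 and 17192) did not pass (adjusted p = 0.162 and 0.178). Of the CR3 pair, Itgam had 4989, 4902, 4369 and 5266 against 3536, 4169.9, 3404 and 3817 (log2 difference -0.27 ± 0.05, adjusted p = 0.0133), and Itgb2 had 22248, 25556, 22342 and 21957 against 19089, 23012, 24369 and 21088 and did not pass (adjusted p = 0.68). Itgam was not called with no trend or robust estimation (adjusted p = 0.052).

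Chemoattractant receptors held 4 higher and 2 lower among 23 tested (26.1% called, against 5.7% over all genes). Ltb4r1, the leukotriene B4 receptor, had 111, 153, 112 and 137 normalized reads in the wild-type libraries and 263, 310.5, 446 and 277 in the knockout libraries and rose 2.53-fold (log2 difference 0.77 ± 0.11, adjusted p = 0.00124). The chemokine receptor gene Cxcr3 had 269.8, 267, 282 and 269 against 353, 435, 355 and 448 (log2 difference 0.40 ± 0.08, adjusted p = 0.0104), and the lipid- and acid-sensing receptor gene Gpr132 rose 1.5-fold (log2 difference 0.40 ± 0.07, adjusted p = 0.00481). The sphingosine-1-phosphate receptor gene S1pr1, which guides cells out of tissue, had 499.8, 649.8, 493 and 644 against 279.6, 327, 271 and 225 and fell to 48.2% (log2 difference -0.77 ± 0.10, adjusted p = 0.000688). Among 22 chemokine ligands 2 were higher, Cxcl11 and the B cell attractant Cxcl13 (log2 difference 5.90 ± 0.22, adjusted p = 1.42e-07), and 1 was lower, Ccl8, with 243, 178, 172 and 192 against 58.9, 102, 136 and 78.9 (log2 difference -0.82 ± 0.17, adjusted p = 0.0162). Ccl8 was not called without mouse 9 or in the authors' deposited table (adjusted p of 0.0572 to 0.485). Of the B cell markers, Cd79b was higher (61.8, 55, 47.1 and 42.3 against 174, 145, 131 and 109.9; log2 difference 0.94 ± 0.12, adjusted p = 0.000741) while Ighm, Ms4a1 and Ebf1 did not pass (log2 differences of 0.37, 0.21 and -0.59, adjusted p = 0.0576, 0.643 and 0.304) and Cd79a and Pax5 did not reach the filter. Of the T and NK cell markers Cd4 was lower (72.2, 61.7, 71.1 and 90.4 against 24.8, 41, 32.8 and 16; log2 difference -0.97 ± 0.18, adjusted p = 0.00898). Cd3g, Trac, Klrb1c and Nkg7 did not pass (log2 differences of -0.35, -0.24, -0.12 and -0.31, adjusted p = 0.399, 0.505, 0.827 and 0.507). Cd3e, Cd3d, Cd8a and Ncr1 did not reach the filter. The part of B, T and NK cells was not tested.

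The growth factor gene Pdgfc had 114, 120.1, 105 and 119 against 43.2, 50, 59.3 and 42.5 and fell to 42.5% (log2 difference -0.86 ± 0.11, adjusted p = 0.000701), and Igf1 had 83.6, 134, 104 and 166 against 47.8, 77, 44.5 and 44.3 and fell to 43.9% (log2 difference -0.82 ± 0.17, adjusted p = 0.017). Tgfb3 had 352, 474, 309 and 365 against 569, 1002, 909 and 740.1 and rose 2.15-fold (log2 difference 0.81 ± 0.14, adjusted p = 0.00744). The death ligand gene Tnfsf10 (TRAIL) was at 72.6% (log2 difference -0.32 ± 0.07, adjusted p = 0.0298). Over 38 cytokines and growth factors these were 1 higher and 3 lower (10.5% called, against 5.7% over all genes). Igf1 was not called without mouse 2 or 9 (adjusted p of 0.0577 to 0.0583). Tnfsf10 was not called without mouse 1, 2, 3, 4, 6, 7 or 9 or in the authors' deposited table (adjusted p of 0.0522 to 0.185). The lower count was 1 without mouse 2 or 9.

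Of 35 cytokine receptors 3 were higher and 0 lower (8.57% called, against 5.7% over all genes). Kit, the stem cell factor receptor, had 19, 26.9, 48 and 30.4 normalized reads in the wild-type libraries and 173, 209, 179 and 327 in the knockout libraries (log2 difference 1.98 ± 0.19, adjusted p = 0.000101). Il1r2, the decoy receptor of interleukin-1, had 244, 409, 205 and 188 against 825, 1031, 833 and 777 and rose 3.31-fold (log2 difference 1.16 ± 0.14, adjusted p = 0.000998). Il7r had 269, 385, 285 and 332 against 429.5, 584, 673 and 466 (log2 difference 0.53 ± 0.11, adjusted p = 0.018). Il2ra, the high-affinity subunit of the interleukin-2 receptor and one of the genes ranked 11 to 30, had 242, 318, 277 and 352 against 759.7, 714, 824 and 661 (log2 difference 0.98 ± 0.09, adjusted p = 3.61e-05), while the common gamma chain gene Il2rg (4703, 4927, 4717 and 4438 against 4359, 4665, 4367 and 4578) did not pass (adjusted p = 0.569). Kit lies next to Kdr on chromosome 5, and both were higher. Il7r was not called without mouse 1, 3 or 7 (adjusted p of 0.0531 to 0.0563).

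**Figure D4:**
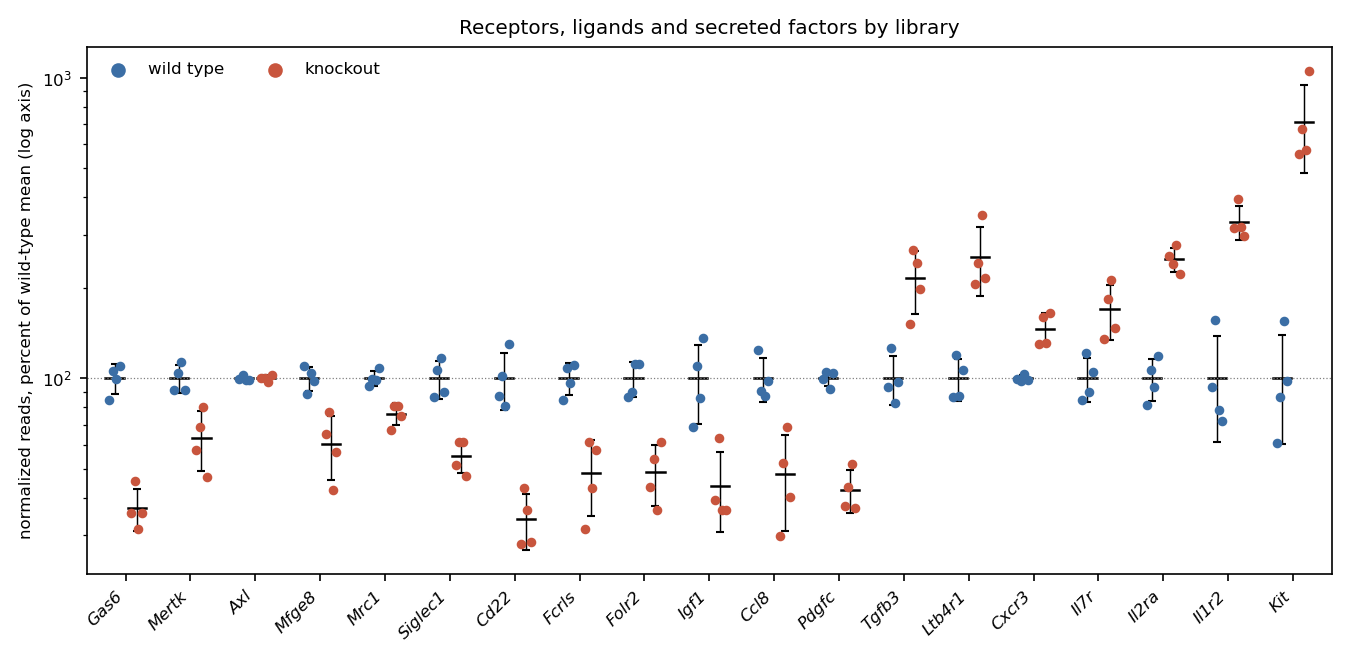
Normalized reads of 19 receptors, ligands and secreted factors as percent of the wild-type mean on a log axis; each point is 1 library (wild type blue, knockout red), the bar is the mean and the whisker the SD. Gas6 falls to 37% while Axl stays at 100.2%, and Kit reaches 714%.

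NF-kB feedback genes held 3 higher and 0 lower of 34: Traf1 (999, 1104, 1149.6 and 1089 against 1598, 1655, 1798 and 1948; log2 difference 0.48 ± 0.05, adjusted p = 0.000212), the A20-binding inhibitor gene Tnip3 (1307, 1484, 1155 and 1477 against 2113, 2317, 2696 and 2409; log2 difference 0.59 ± 0.07, adjusted p = 0.00036) and the NF-kB subunit gene Rel (1013, 975, 991 and 995 against 1568, 1366, 1724 and 1478; log2 difference 0.44 ± 0.05, adjusted p = 0.000374). In none of them did the groups overlap, and the share of the list called was 8.82%, against 5.7% over all genes. In the inflammasome and cell death list 3 of 33 were higher and 0 lower (9.09% called, against 5.7% over all genes). They were the pro-death gene Bcl2l11 (BIM; 1.35-fold, log2 difference 0.30 ± 0.06, adjusted p = 0.0114), the necroptosis kinase gene Ripk3 (1.24-fold, log2 difference 0.22 ± 0.04, adjusted p = 0.0145) and Bcl2, which opposes death (1.4-fold, log2 difference 0.35 ± 0.08, adjusted p = 0.0251). Bcl2l11 was not called in the authors' deposited table (adjusted p = 0.0705). Ripk3 was not called with no trend or robust estimation or in the authors' deposited table (adjusted p of 0.051 to 0.0614). Bcl2 was not called without mouse 1, 2, 3, 6, 8 or 9 or with no trend or robust estimation or quality weights (adjusted p of 0.0506 to 0.0787).

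Of 54 transcription factors 5 were higher and 3 lower (14.8% called, against 5.7% over all genes). Ahr, the aryl hydrocarbon receptor, had 833, 767, 818 and 986 normalized reads in the wild-type libraries and 1506, 1701, 1743 and 1714 in the knockout libraries (log2 difference 0.67 ± 0.06, adjusted p = 2.46e-05) and its partner Arnt 1489, 1438, 1356 and 1314 against 1440.3, 1489, 1440.1 and 1517 (adjusted p = 0.545). Nr1h3 (LXRα), a sterol sensor, had 1106, 1219, 1241 and 1023 against 673, 782, 576 and 725 and fell to 60.1% (log2 difference -0.53 ± 0.07, adjusted p = 0.000926), while its paralog Nr1h2 (2579.7, 2839, 2831 and 2826 against 2518, 2836, 2642 and 2611) did not pass (adjusted p = 0.62). Maf, which drives a resident-like macrophage programme, fell to 70% (log2 difference -0.38 ± 0.07, adjusted p = 0.00693). Epas1 was scarce and uneven, with 6.65, 3.37, 15.7 and 11.8 against 41.4, 72.9, 22.2 and 62 (log2 difference 1.32 ± 0.25, adjusted p = 0.0116), and Nr4a2 had 453, 590.3, 374 and 658 against 851, 1158, 1329 and 1032 (log2 difference 0.76 ± 0.13, adjusted p = 0.01). Of 19 alternative activation genes 1 was higher and 3 lower, Mrc1, Folr2 and the cytokine signalling inhibitor gene Socs2 (65.5%, log2 difference -0.42 ± 0.10, adjusted p = 0.0366). The higher one, Pparg, had 494, 350.2, 416 and 431 against 572, 631, 629 and 599 and rose 1.44-fold (log2 difference 0.39 ± 0.07, adjusted p = 0.01). Of 37 immediate early genes 2 were lower (5.41% called, near the 5.7% over all genes). They were the ERK phosphatase gene Dusp6 (75.5%, log2 difference -0.28 ± 0.04, adjusted p = 0.000926) and Ier2 (78.7%, log2 difference -0.24 ± 0.04, adjusted p = 0.00289). Socs2 was not called without mouse 1, 2, 3, 4, 6, 8 or 9 (adjusted p of 0.0559 to 0.103). Epas1 was not tested with a linear minimum of 50. The authors' deposited table called 9 of the transcription factors higher and 1 alternative activation gene lower.

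Lipid genes moved in both directions. On the LXR and lipid handling list, 4 of 31 genes were higher and 3 lower (22.6% called, against 5.7% over all genes). Apoe, an apolipoprotein gene and among the most abundant transcripts here, had 392944, 501997, 502132 and 409137 against 267807, 324711, 342107 and 287293 and fell to 67.7% (log2 difference -0.42 ± 0.08, adjusted p = 0.00929). Lpl, which releases fatty acids from lipoproteins, had 2009, 1462, 1699 and 2177 against 2878, 2871, 2637 and 2873 (log2 difference 0.47 ± 0.08, adjusted p = 0.00607). Cholesterol synthesis gave 0 calls by limma or voom among 23 genes (9 at an unadjusted p under 0.05), with 21 above 0 (median 0.14), and 4 calls in the authors' deposited table. The sterol regulatory element TCACNCCAC was in 1 of its 16 promoters on file (6.25%) against 1.34% of tested genes. Lpl was not called in the authors' deposited table (adjusted p = 0.0537). The 4 higher on the lipid handling list were 2 without mouse 2, 3 or 8 or limma's trend and robust options.

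Enzymes of glycerolipid and phospholipid turnover held 4 higher and 5 lower of 43 (20.9% called, against 5.7% over all genes). Lpin1, the phosphatidate phosphatase, had 414, 396, 480.1 and 416 against 32.2, 64.7, 23.3 and 51.4 (log2 difference -2.23 ± 0.15, adjusted p = 3.62e-06). Cds1, which uses the same substrate to make CDP-diacylglycerol, went the other way, with 640.4, 644, 693 and 584 against 1364, 2102, 1713 and 1509 (log2 difference 0.97 ± 0.09, adjusted p = 6.27e-05). The lysophospholipase D gene Gdpd3 had 78.9, 53.9, 54.5 and 73.5 against 311, 315, 564 and 293 and rose 5.69-fold (log2 difference 1.70 ± 0.16, adjusted p = 7e-05), whereas its relative Gdpd1 had 459.9, 512, 480.1 and 611 against 246, 304, 290.1 and 186 and fell to 49.8% (log2 difference -0.77 ± 0.11, adjusted p = 0.00211). In all 4 the groups were apart. Hpgds, the prostaglandin D2 synthase of blood cells, was at 82.3% (log2 difference -0.22 ± 0.05, adjusted p = 0.0242). Hpgds was not called without mouse 1, 2, 3, 4 or 9, with no trend or robust estimation or in the authors' deposited table (adjusted p of 0.0517 to 0.284). The 5 lower were 2 without mouse 2 or 4, and 3 without mouse 8 or limma's trend and robust options.

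In amino acid and polyamine metabolism, Odc1, the first enzyme of polyamine synthesis, had 1854, 2398, 1734 and 1913 normalized reads in the wild-type libraries and 835, 1049, 1229 and 1032 in the knockout libraries (log2 difference -0.67 ± 0.09, adjusted p = 0.0015). Along the kynurenine route from tryptophan, Kmo had 125, 110.0, 152 and 131 against 264, 275, 198 and 252 and rose 1.91-fold (log2 difference 0.63 ± 0.10, adjusted p = 0.00225). Kynu, the next branch enzyme, had 116, 130.2, 179 and 92.1 against 67.1, 72.1, 66.7 and 70 and fell to 53.3% (log2 difference -0.57 ± 0.13, adjusted p = 0.0238), and Haao, further along, had 554, 553, 516 and 565 against 659, 623, 637 and 558 and did not pass (adjusted p = 0.21). Nt5e (CD73), which makes adenosine from AMP, had 4049, 5175, 3991 and 5429 against 6941, 8500.4, 6587 and 8099.8 (log2 difference 0.49 ± 0.08, adjusted p = 0.00693). Kynu was not called without mouse 2, 3, 6, 7 or 9 (adjusted p of 0.0506 to 0.0694).

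In the heme and iron list, Hebp1, a heme-binding protein, had 80.8, 109, 123 and 130.2 normalized reads in the wild-type libraries and 2216, 2600.3, 2445 and 2342 in the knockout libraries (log2 difference 3.20 ± 0.08, adjusted p = 1.67e-09) and was far apart between the groups. Of 32 genes 1 was higher and 3 lower (12.5% called, against 5.7% over all genes). Cp, the ferroxidase ceruloplasmin, had 817, 470.2, 552 and 548 against 182, 252, 194 and 166 (log2 difference -1.11 ± 0.13, adjusted p = 0.000439), Blvrb, which reduces biliverdin, 1806, 1935, 1699.9 and 1839 against 1108, 1448, 1434 and 1179 (log2 difference -0.37 ± 0.07, adjusted p = 0.00697), and Hfe, a regulator of iron uptake, was at 83.6% (log2 difference -0.19 ± 0.05, adjusted p = 0.0336). The red blood cell genes were lower in the same libraries (sums given above), and their part in the heme genes was not tested. In the redox list of 41, only Gsto1, a glutathione transferase, was called, with 1904, 1869, 2039.7 and 1947 against 1244, 1350.1, 1169 and 1064 (log2 difference -0.49 ± 0.05, adjusted p = 0.000175). Hfe was not called without mouse 2, 3, 4, 6 or 9, with no trend or robust estimation or in the authors' deposited table (adjusted p of 0.0519 to 0.193). Without mouse 7 the heme and iron list had 7 lower.

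Core energy metabolism had few calls. The shares called were 1.37% for oxidative phosphorylation and 8.11% for the citrate cycle and fatty acid oxidation, against 5.7% over all genes. Of 73 oxidative phosphorylation genes 1 was lower, Ndufa4 (735, 634, 598 and 676 against 493, 542, 447 and 472; log2 difference -0.29 ± 0.06, adjusted p = 0.0142), though 63 of 73 lay below 0. Of 37 genes of the citrate cycle and fatty acid oxidation 3 were lower: Idh2, the mitochondrial isocitrate dehydrogenase, with 3451, 3548, 3715 and 3623 against 2382, 2828, 2393 and 2661 (log2 difference -0.36 ± 0.05, adjusted p = 0.000919), Cpt2 at 79.2% (log2 difference -0.24 ± 0.05, adjusted p = 0.0199) and Idh1 at 79.3% (log2 difference -0.24 ± 0.06, adjusted p = 0.0412). The values of Idh1 overlapped between the groups. Of 39 glycolysis and hypoxia genes 1 was higher, Pfkp (1.2-fold, log2 difference 0.18 ± 0.05, adjusted p = 0.0488). Of 75 cytosolic ribosomal protein genes, Rps15a (1127, 1163, 1163 and 1193 against 749, 764, 763 and 815; log2 difference -0.42 ± 0.04, adjusted p = 8.7e-05) and Rps13 (1751, 1819, 1808 and 1892 against 1178, 1343, 1269 and 1207; log2 difference -0.39 ± 0.04, adjusted p = 0.000212) were called, and both lie on chromosome 7. Cpt2 was not called without mouse 1, 2, 7 or 9 (adjusted p of 0.0525 to 0.0723). Idh1 was not called without mouse 1, 2, 4, 6, 8 or 9 or with no trend or robust estimation or quality weights (adjusted p of 0.0647 to 0.115). Pfkp was not called without mouse 1, 2, 3, 4, 7, 8 or 9, with no trend or robust estimation or no filter on low values or in the authors' deposited table (adjusted p of 0.0541 to 0.127). The citrate cycle and fatty acid oxidation count was 1 without mouse 1, 2 or 9.

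Of 34 protein folding and stress genes of the endoplasmic reticulum 6 were higher and 0 lower (median 0.14). The share called was 17.6%, against 5.7% over all genes. Dnajc3 (p58IPK), a co-chaperone that restrains the kinase PERK, had 4186, 5057, 3789 and 4162 against 5307, 6177, 6496 and 6106 (log2 difference 0.35 ± 0.07, adjusted p = 0.00851). Hyou1, a large chaperone, had 1429, 1722, 1356 and 1584 against 1910.2, 2098, 1905 and 2300.2 (log2 difference 0.31 ± 0.06, adjusted p = 0.0133), and the stress sensor gene Atf6 rose 1.24-fold (log2 difference 0.23 ± 0.05, adjusted p = 0.0164). Hyou1 was not called with no trend or robust estimation or in the authors' deposited table (adjusted p of 0.0511 to 0.0553). Atf6 was not called without mouse 1, 2 or 4 or with no trend or robust estimation (adjusted p of 0.0519 to 0.0605). The count of 6 ran from 1 to 12: it was 12 without mouse 6, 1 without limma's trend and robust options, 2 without mouse 1 or mouse 4, and 3 without mouse 7, mouse 8 or mouse 9.

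Some genes of DNA replication were higher, where 2.57% of all genes tested were higher. Of 43 S phase genes 4 were called, all higher, and all 43 lay above 0 (median 0.16), whereas of 44 mitotic genes 0 were called by limma, by voom or in the authors' deposited table (0 at an unadjusted p under 0.05; median -0.06). Prim2, of the primase that starts new strands, had 456, 376, 433 and 469.9 normalized reads in the wild-type libraries and 588, 565, 605 and 675 in the knockout libraries (log2 difference 0.36 ± 0.07, adjusted p = 0.00939), and its partner Prim1 458, 493, 459.8 and 521 against 609.8, 632, 551 and 766 (log2 difference 0.30 ± 0.08, adjusted p = 0.0448). Of the helicase complex, Mcm4 had 2297, 2364, 1926 and 2220.3 against 3012, 3049, 2535 and 3471 (log2 difference 0.33 ± 0.07, adjusted p = 0.0182) and Mcm3 4031, 4052, 3830.1 and 4352 against 5368, 5427, 4252 and 6095 (log2 difference 0.28 ± 0.07, adjusted p = 0.0491), the latter with overlap. Its other members Mcm2, Mcm5, Mcm6 and Mcm7 had log2 differences of 0.38, 0.30, 0.29 and 0.30 and did not pass (adjusted p = 0.0635, 0.0952, 0.119 and 0.0517). Mouse 8 was the lowest knockout library in all of these genes except Prim2. Without mouse 8 all 4 of those helicase genes passed (adjusted p of 0.00346 to 0.00483). Mcm2 and Mcm7 also passed with array quality weights (adjusted p = 0.0458 and 0.037), and Mcm2 and Mcm5 in the authors' deposited table (adjusted p = 0.0167 and 0.0421). The count was 14 without mouse 8, while it was 2 without mouse 1, 2, 3, 4, 6 or 9, and without mouse 7, or without limma's trend and robust options, it was 1. Prim1 was not called without mouse 1, 2, 3, 4, 6, 7 or 9, with no trend or robust estimation or no filter on low values or in the authors' deposited table (adjusted p of 0.0537 to 0.109). Mcm4 was not called without mouse 7 or with no trend or robust estimation (adjusted p of 0.0523 to 0.0604). Mcm3 was not called without mouse 1, 2, 3, 4, 6, 7 or 9, with no trend or robust estimation or a linear minimum of 50 or in the authors' deposited table (adjusted p of 0.0507 to 0.124). Ccnd1, the cyclin of the G1 phase, had 2016, 2323, 2109 and 2054 against 4862, 5606, 4118 and 7029 (log2 difference 1.01 ± 0.11, adjusted p = 0.000785), all above the wild type. Mouse 8 was also lowest in the mitotic list (median -0.372, against -0.0004 to 0.153 in the other knockout libraries).

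Signalling receptors coupled to G proteins held 13 calls among 42 genes (31.0%, against 5.7% over all genes), 6 higher and 7 lower. The higher count was 3 without mouse 4, and the lower count was 4 without mouse 1, 2 or 9 and 3 without limma's trend and robust options. Gpr34, a lysophosphatidylserine receptor, had 1549.7, 1728, 1624 and 1611 against 1060.4, 1128, 1043 and 1173 (log2 difference -0.44 ± 0.05, adjusted p = 0.0002), and the orphan receptor gene Gpr160 1005, 911, 953 and 861 against 673, 686, 626 and 628 (log2 difference -0.36 ± 0.05, adjusted p = 0.00119). Rgs10, which shortens such signals, had 3408, 3099.8, 3332 and 3198 against 4576, 4615, 5920.2 and 4918 (log2 difference 0.45 ± 0.06, adjusted p = 0.000835), Gpr141 1049, 1231, 1326 and 1102 against 1624, 1793, 1679 and 1552 (log2 difference 0.33 ± 0.05, adjusted p = 0.00388) and P2ry10, a lysophospholipid receptor, 48.5, 86.4, 103 and 72.7 against 180.3, 184, 151 and 248 (log2 difference 0.90 ± 0.15, adjusted p = 0.00538). Htr2b, a serotonin receptor, had 149, 211, 212 and 207 against 63.5, 72.9, 48.7 and 51.4 and fell to 30.3% (log2 difference -1.26 ± 0.13, adjusted p = 0.00013). In each of these the groups were apart.

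Adhesion, shape and matrix genes were mixed. Over all genes tested 2.57% were higher and 3.13% lower. Vcam1 had 1392, 1431, 1607 and 1102 against 253, 317, 474 and 271 (log2 difference -1.54 ± 0.14, adjusted p = 0.000155), and Eps8, which caps and bundles actin, 3022, 2521, 2818 and 2989 against 1588, 1813, 1219 and 1581 (log2 difference -0.63 ± 0.08, adjusted p = 0.00071). Ezr, which ties actin to the membrane, rose 1.3-fold (log2 difference 0.27 ± 0.04, adjusted p = 0.00393). Among guidance genes 4 of 28 were lower and 1 higher. Sema4b had 358, 357, 371 and 360.0 against 41.4, 40.1, 28.6 and 21.3 (log2 difference -2.37 ± 0.12, adjusted p = 2.6e-07), and the co-receptor gene Nrp2 2569, 2852, 2946 and 2858 against 2080.4, 2012, 1629.6 and 1837 (log2 difference -0.43 ± 0.06, adjusted p = 0.00116). Of 47 matrix, protease and angiogenic genes 5 were lower and 1, Kdr (VEGFR2; 252, 219, 404 and 211 against 888, 761, 756 and 771; log2 difference 1.15 ± 0.13, adjusted p = 0.000444), higher. The lower ones included the gelatinase gene Mmp2 (364, 411, 362 and 352 against 179, 162, 169 and 96.6; log2 difference -0.94 ± 0.12, adjusted p = 0.00071) and Timp2, the inhibitor that also helps to activate it (14677, 16382, 18497 and 17695 against 12331, 12874, 10126 and 12696; log2 difference -0.37 ± 0.07, adjusted p = 0.00962). Eng, another endothelial marker, was higher too (288, 292, 199 and 243 against 398, 387, 609 and 514), while Pecam1, Cdh5 and Vwf did not pass (adjusted p = 0.853, 0.73 and 0.447), and the part of endothelial cells was not tested. Timp2 was not called in the authors' deposited table (adjusted p = 0.195). Of the guidance genes 2 were lower without mouse 1, 2 or 9, and of the matrix genes 3 were lower without mouse 3.

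Chromatin and clock genes gave a few calls, all lower. The counts of this paragraph stand against 5.7% called and 3.13% lower over all genes. Smarcd1 lay among other called genes on chromosome 15, as given below. Of 43 chromatin enzymes 3 were called: Smarcd1, a subunit of the SWI/SNF remodeller (386, 355, 382 and 409.9 against 32.2, 30.3, 16.9 and 21.3; log2 difference -2.64 ± 0.11, adjusted p = 6.98e-08), the class IIa deacetylase gene Hdac9 (763, 697, 822 and 740.4 against 161, 143, 154 and 229.6; log2 difference -1.60 ± 0.10, adjusted p = 1.71e-06) and Sirt2 (79.3%, log2 difference -0.24 ± 0.04, adjusted p = 0.00457). Of 16 clock genes 3 were called, Nr1d1 (REV-ERBα; 141, 119, 114 and 137 against 69.9, 92.6, 50.8 and 67.4; log2 difference -0.59 ± 0.12, adjusted p = 0.0148), the output gene Tef (674, 551, 632 and 805 against 478, 459.6, 371 and 324; log2 difference -0.51 ± 0.10, adjusted p = 0.0154) and Arntl (BMAL1; 77.1%, log2 difference -0.27 ± 0.07, adjusted p = 0.0429), whereas Per2 (209, 150.4, 237 and 293 against 213, 202, 209.7 and 266) and Cry1 (695, 696, 748 and 736 against 633, 717, 719 and 711) did not pass (adjusted p = 0.953 and 0.756). Of 25 p53 target genes, the nuclease gene Aen rose 1.4-fold (log2 difference 0.35 ± 0.06, adjusted p = 0.00506) and Sesn1 fell to 72.1% (log2 difference -0.36 ± 0.07, adjusted p = 0.0157). Arntl was not called without mouse 1, 2, 3, 4, 6, 8 or 9 or with no trend or robust estimation, no filter on low values or quality weights (adjusted p of 0.0517 to 0.119). Sesn1 was not called without mouse 4 or with no trend or robust estimation (adjusted p of 0.0514 to 0.0539).

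The remaining genes ranked 11 to 30 by size in each direction, after those already described, were mostly of single functions. The ranking took only called genes whose groups did not overlap. Higher were Tmem242 (238, 311, 279.8 and 259 against 1351, 1409, 1179.6 and 1319.8), a mitochondrial protein, Hddc3 (13.3, 12.3, 12.9 and 13.5 against 74.5, 82.7, 72 and 67.4), Grasp (106, 221, 175 and 208 against 412, 566, 932 and 617) and Tmeff1 (92.2, 224, 95.1 and 159.7 against 489, 449, 717 and 258). The adhesion gene Nectin3 (14.3, 13.5, 14.8 and 20.3 against 61.6, 73.7, 101 and 42.5) and the tetraspanin gene Tspan13 (219, 237, 163 and 190.2 against 521, 615, 717 and 622) were also higher. Mir5107 (64.6, 56.1, 61.9 and 52.4 against 199.6, 163, 168 and 148) lies inside Cd74, and without strand its reads cannot be told apart from those of that class II gene. Lower were Tbc1d4 (212, 214, 287 and 267 against 79.1, 51.6, 58.2 and 63.8), which regulates glucose transporter traffic, Gsg1 (81.7, 77.4, 93.3 and 93 against 14.7, 26.2, 23.3 and 16), the carbonyl reductase gene Cbr2 (275, 240.2, 329.6 and 305 against 53.3, 94.2, 93.2 and 126) and the glycogen-binding gene Stbd1 (219, 182, 206 and 225 against 74.5, 48.3, 64.6 and 72.7). Rsph3a (147, 138, 139 and 143 against 37.7, 46.7, 41.3 and 45.2), Gas1 (131, 123, 72.9 and 82.8 against 37.7, 24.6, 15.9 and 36.3) and Btbd11 (373, 275, 310.2 and 321 against 132, 154, 78.4 and 97.5) were also lower. Cald1 (162, 80.8, 57.2 and 70.1 against 46, 36.9, 14.8 and 12.4) and Lamb2 (90.3, 37, 56.3 and 71 against 12.9, 36, 10.6 and 5.32) completed the lower ranks, with the hemoglobin gene Hbb-b1 (711, 1195, 442 and 701 against 279, 383, 176 and 214), whose close copies can share reads. Tmeff1 was not called without mouse 1, 3, 4, 6, 7 or 8 or with no filter on low values or voom (adjusted p of 0.0502 to 0.105). Cbr2 was not called in the authors' deposited table (adjusted p = 0.0935). Cald1 was not called without mouse 1, 2, 3, 4, 7, 8 or 9 or with no trend or robust estimation, no filter on low values or voom (adjusted p of 0.0516 to 0.116). Lamb2 was not called without mouse 1, 3, 4, 6, 8 or 9 (adjusted p of 0.0537 to 0.0671). Hbb-b1 was not called without mouse 1, 2, 4, 6, 8 or 9 or with no filter on low values, quality weights or voom (adjusted p of 0.0519 to 0.118). Hba-a1 was not called without mouse 1 or 9 (adjusted p of 0.0559 to 0.0585). Alas2 was not called without mouse 1, 4, 6, 8 or 9 or with no trend or robust estimation or voom (adjusted p of 0.052 to 0.0802).

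**Figure D5:**
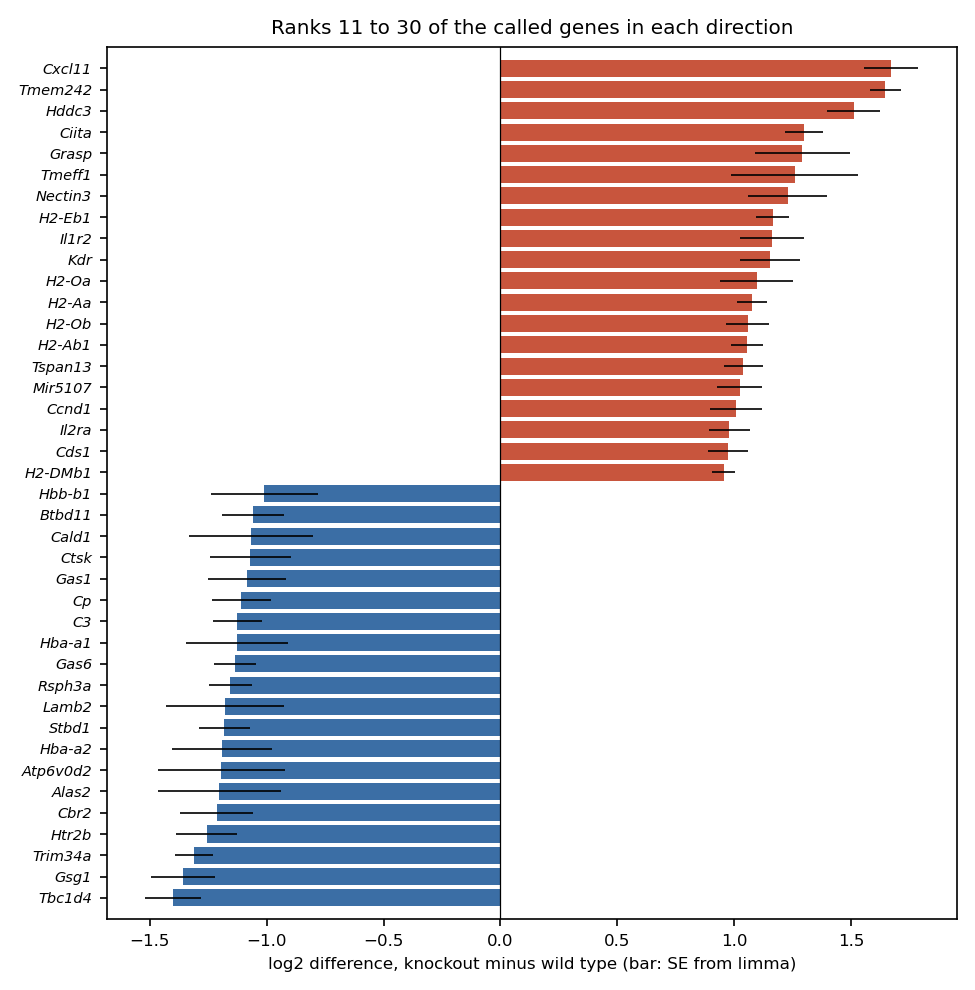
Log2 difference (knockout minus wild type, deposited scale) with its SE from limma for the called genes ranked 11 to 30 in each direction; red bars are higher and blue bars lower in the knockout. Only called genes without overlap between the groups were ranked. Values run from -1.40 (Tbc1d4) to 1.67 (Cxcl11).

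The share of genes called differed along the genome (GRCm38). On chromosome 7, 111 of 961 tested genes were called (11.55%, 36 higher and 75 lower), against 5.23% off that chromosome. Among 137 intervals of 20 Mb with at least 20 tested genes, the highest share was on chromosome 7 from 100 to 120 Mb, at 26.47% (9 higher and 27 lower of 136), then on chromosome 6 from 140 to 160 Mb (26.09% of 46) and on chromosome 12 from 20 to 40 Mb (24.53% of 53). Of the neighbours of called genes, 10.1% within 1 Mb were themselves called, against 5.25% of the neighbours of genes that were not called. Ranks 7 and 8 were chromosome 15 from 100 to 120 Mb (17.54% of 57) and chromosome 17 from 0 to 20 Mb (16.88% of 77). No test of this clustering was made. Within 10 Mb of C3 on chromosome 17, 4 of 84 genes were called (4.76%), all lower. The share was 7.75% on the rest of that chromosome (44 of 568) and 5.61% on other chromosomes. Both counts near C3 include C3 itself, the targeted gene.

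The densest group lay around the Trim cluster on chromosome 7. Of the 14 tested neighbours of Trim12a (104299894 to 104315466) within 1 Mb 9 were called, among them Trim5, Trim34a, Trim34b, Trim30b, Trim6 and the hemoglobin genes Hbb-bt and Hbb-b1. These Trim genes encode E3 ubiquitin ligases that include antiviral restriction factors. Trim12a had 542, 466, 499 and 412 against 2.76, 1.64, 0 and 3.55, Trim5 137, 123, 168 and 139 against 6.44, 7.37, 3.18 and 9.75 and Trim34a 238, 233, 243 and 209 against 58.9, 59.8, 61.4 and 54.1. Trim34b went the other way, with 1.9, 0, 5.54 and 8.45 against 96.6, 94.2, 55.1 and 69.1, and because the family members are near copies, reads can move from one to another. Further called neighbours on this chromosome were Idh2, Sema4b, Hddc3 and Mfge8, then Plekha7 (0, 0, 6.46 and 6.76 against 170.1, 122, 111 and 119.7) beside Rps13. On chromosome 12 the neighbours Lpin1 and Odc1 were both lower, and Ahr and Tspan13 both higher. On chromosome 6 Hebp1 was higher beside Gsg1, which was lower. Other genes described by function above also lay among called neighbours within 1 Mb. These were Smarcd1 on chromosome 15 (10 of 35 tested neighbours called), Ezr on chromosome 17 (7 of 18) and Eps8 on chromosome 6 (4 of 11). On chromosome 7 they were Gvin1 (6 of 17) and Tpp1 (6 of 18). The part of position in these genes was not tested. Trim6 was not called without mouse 7 (adjusted p = 0.0593). Off chromosome 7, 19 of 89 tested genes on the 4 lysosomal lists were lower.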

How the data were processed

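RNA from 8 macrophage sorts, 4 per genotype, was made into libraries from 5 ng of total RNA with the SMART-Seq v4 kit, per the labels' protocols. The kit marks no strand, so reads of genes that overlap or run antisense to each other are mixed. The submitters' processing notes name STAR (2.7.2b), DESeq2, bcl2fastq (2.19.0.316) and the mouse build GRCm38. Their roles, the way of counting and the gene models were not given in the sources used here. For 30819 genes the authors deposited log2 values, spaced as in a regularized logarithm, which draws low values together, though no header names it. Their deposited comparison table gives, per the file headers, a base mean, which is a signal (the mean normalized count over all libraries), and the authors' log2 fold change and adjusted p-value, the latter for 14087 genes. The matrix held 0 columns of other samples.

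Reads were computed back from the log2 values and the base mean. Over 20443 genes whose base mean was 1 or more, 82.5% of values came within 0.05 of a whole read, and 99.7% of gene means within 1% of the base mean. In 3 tested genes they did not match, Cxcl13 among them, so its reads are not given. The design provided for counts or normalized values; because the matrix holds log2 values, limma 3.58.1 (R 4.3.3, trend and robust) was fitted to them as deposited. Genes needed a linear value of 10 or more in 4 or more libraries, and p-values were adjusted by Benjamini-Hochberg over all of them. The script was tested on simulated data. Tables were made with Python 3.11.15, numpy 2.4.6, scipy 1.17.1 and pandas 2.3.3.

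Members and lists were chosen with earlier results of these data known, so list counts are descriptions. Some list members are not reported here. Named were C3, up to 4 called members of each list described, called members that differ at least 2-fold, ranks 11 to 30 in each direction, partners that complete a complex or ligand-receptor pair, and genes with promoter matches. The partners and the genes with matches were chosen after their values were seen. Of the matrix rows, 30796 had a symbol. Alternatives were TMM scaling, no filter, a linear minimum of 50, no trend or robust estimation, array quality weights, voom on recovered reads, the authors' table and each library left out. Each library is from a separate mouse by its title, and p-values measure the spread between these libraries.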

Additional observations from a re-analysis of the deposited data

Results flagged for a closer look

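In each gene named here, the 4 libraries of a group were searched for 1 that lies apart. The gap to its nearest neighbour, as a share of the group's whole range, had to exceed Dixon's 95% critical value for 4 samples, and chance alone marks about 1 in 20 groups. Of 422 groups searched, 22 were marked, a share close to that 1 in 20. The marks are therefore listed as description and do not show that a library differs. In the wild type, mouse 1 stood apart in Htr2b (lowest, 0.932) and Nr1h2 (lowest, 0.951). Mouse 2 stood apart in Aen (highest, 0.919) and Itgb2 (highest, 0.886). Mouse 3 stood apart in Atp6v1b2 (highest, 0.862). Mouse 4 stood apart in Ifi27l2a (lowest, 0.863), Ifit3b (lowest, 0.858), Nectin3 (highest, 0.836) and Oas1g (lowest, 0.919), where each number is the share of the range. In the knockout, mouse 6 stood apart in Rab7b (lowest, 0.846), Ahr (lowest, 0.832), Kdr (highest, 0.876) and Cry1 (lowest, 0.909). Mouse 7 stood apart in Igf1 (highest, 0.868). Mouse 8 stood apart in Bcl2l11 (highest, 0.93), Ier2 (highest, 0.848), Pfkp (highest, 0.856), Lpl (lowest, 0.972), Gdpd3 (highest, 0.891) and Itgax (lowest, 0.954). Mouse 9 stood apart in Mmp2 (lowest, 0.832) and Rxra (lowest, 0.911). Mouse 8 was marked most often, in both directions, and its S phase and fibroblast values were low as described above. No explanation for these libraries was tested.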

How the results depend on the processing

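No paired analysis was possible because the wild-type mice (1 to 4) and the knockout mice (6 to 9) share no replicate number. Over the 15 alternatives C3 stayed lower and called. With 1 library left out its log2 difference ran from -1.19 to -1.06, all called genes from 458 to 656, genes higher from 220 to 310, genes lower from 225 to 346, and the share called within 10 Mb of C3 from 2.38% to 7.14%. The main values were 717, 323, 394 and 4.76%. The share within 10 Mb counts C3 itself. The lowest counts came without mouse 2 (458 called, 225 lower) and without mouse 1 (249 lower) or mouse 9 (246 lower), and 2.38% came without mouse 2, 4, 6 or 9. The cause was not tested; each of these fits has 1 library fewer. Of 192 named genes called, 111 were tested and passed under every alternative, 63 lost their call without some library and 0 changed direction where tested. A further 6 passed wherever they were tested: Gvin1, not tested with a linear minimum of 50 or without mouse 1, 2, 3 or 4, and Epas1, Trim34b, Hddc3, Nectin3 and Cd4, not tested with that minimum. With TMM scaling 331 genes were higher and 400 lower. Low reads limit Trim12a, Trim6, Trim34b, Plekha7 and Ntn1, for which no fold is given, and Hddc3 and Epas1, which rest on few reads.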
